A study of Mus musculus with 2 samples.

Results

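The genes described here are 10 core genes of the mammalian circadian clock, Arntl, Clock, Npas2, Per1, Per2, Per3, Cry1, Cry2, Dbp and Nr1d1, chosen by symbol from the 43346 annotated genes of each gene table. They were measured in 2 poly(A) RNA-seq libraries of small intestine from untreated adult C57BL/6J mice aged 8 weeks, an inbred laboratory strain. Per the labels, the tissue was pooled from male and female littermates, and the libraries are biological replicates 1 and 2 of 1 group, from separate biosamples. The RNA was longer than 200 nt, depleted of ribosomal RNA and read from both ends in stranded reads of 76 nt, with spike-in RNA added. The labels used here name neither a segment of the intestine nor an hour of collection, so the time of day at which either tissue was taken, and whether it was the same for both, is not known. With 2 libraries of 1 group no test was possible, and every difference below is a difference between these libraries, whose spread may be technical as well as biological.

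The circadian clock is a feedback loop of transcription that runs in nearly every cell. ARNTL (also called BMAL1) pairs with CLOCK or with its relative NPAS2 and binds E-boxes to switch on the Per and Cry genes, Nr1d1 and Dbp, and the PER and CRY proteins then return to the nucleus and repress that pair. NR1D1 (REV-ERB alpha) and the ROR receptors compete for RORE elements, through which Arntl is repressed or activated, so that in peripheral tissues the RNA of Arntl and Npas2 peaks at a phase roughly opposite to that of Nr1d1, Dbp and the Per genes. In the gut this clock follows feeding time as well as light and sets the daily rhythm of nutrient transporters.

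Letters based on the known binding sites of these factors were searched in the RefSeq promoter windows, which run from 250 bases before to 50 bases after a transcription start on GRCm38.p6. The table matched 9 of the 10 members by symbol, all but Per2, with 13 windows. The motifs were the E-box CACGTG, the E-prime box CACGTT, the D-box TTANGTAA (the site of DBP and its relatives), the RORE TNGGTCA and the cyclic AMP element CRE TGACGTCA, each on both strands. N stands for any base, so the short RORE letters also take sequences that need not be a binding site. The stretches below are shown because they carry the matches of both limbs of the loop, on the strand of the gene and 5′ to 3′, with the matched letters in capitals. The Arntl stretch (chr7:113207245-113207311, plus strand, from 220 to 154 bases before the start) holds 2 matches to the RORE letters. A shorter stretch in the 5′ UTR of Arntl exon 1 (chr7:113207531-113207557, plus strand) holds another match to these letters. That of Per1 (chr11:69098763-69098810, plus strand, from 186 to 139 bases before the start) holds an E-box. That of Per3 (chr4:151044756-151044890, minus strand, from 225 to 91 bases before the start) holds 2 identical D-boxes and a match to the RORE letters on the opposite strand. That of Cry1 (chr10:85185087-85185153, minus strand, from 99 to 33 bases before the start) holds an E-prime box on the opposite strand and an E-box. That of Nr1d1 (chr11:98775378-98775425, minus strand, the last 48 bases before the start) holds an E-prime box on the opposite strand.
Arntl: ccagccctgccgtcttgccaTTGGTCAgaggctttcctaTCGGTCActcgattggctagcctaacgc
Arntl exon 1: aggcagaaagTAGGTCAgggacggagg
Per1: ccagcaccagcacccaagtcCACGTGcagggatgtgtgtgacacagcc
Per3: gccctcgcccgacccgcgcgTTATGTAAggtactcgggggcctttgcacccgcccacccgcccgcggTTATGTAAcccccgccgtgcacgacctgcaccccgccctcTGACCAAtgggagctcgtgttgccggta
Cry1: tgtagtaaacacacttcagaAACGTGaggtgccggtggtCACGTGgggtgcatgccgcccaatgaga
Nr1d1: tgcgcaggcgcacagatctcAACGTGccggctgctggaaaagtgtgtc

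An E-box lay in a window of 2 of the 9 members (Per1 and Cry1) and in 7.15% of all 32851 RefSeq promoter windows of this length. Members are counted here by a match in any of their windows, and the shares are of single windows, so the units differ. An E-prime box lay in 3 members (Cry1, Cry2 and Nr1d1) and in 4.68% of all windows. The RORE letters lay in 3 members (Arntl, Per3 and Cry2) and in 11% of all windows, and Arntl held matches in both of its overlapping windows. The D-box was found in 1 member, Per3, and in 2.32% of all windows. The CRE was in no member's window and in 1.79% of all windows. Clock, Npas2 and Dbp held none of the 5 motifs in these windows, which says only that those letters are not in these bases. Each start is that of the RefSeq window, and for 11 of the 13 windows the bases after it were found in a GENCODE transcript of the gene. For the windows of Nr1d1 and Cry2 they were not, so the distances given for these genes rest on the RefSeq start alone. No matches overlapped each other in the members' windows. A match is a description of letters, and binding was not measured in these libraries.

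**Figure D1:**
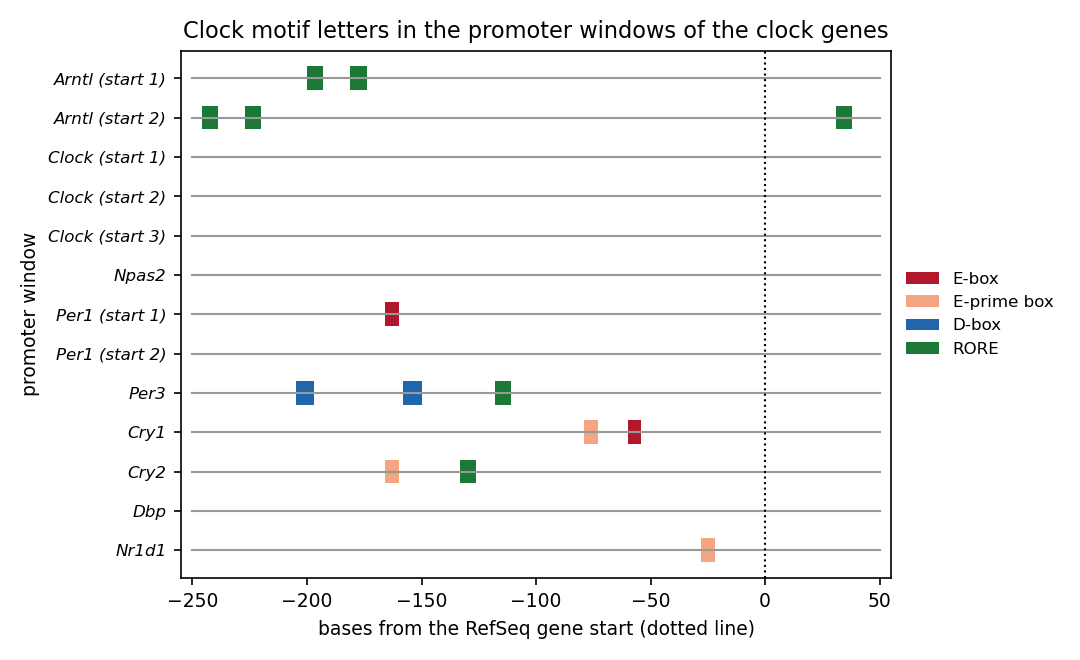
Position of each motif match in the promoter windows of the 9 members with a window, as distance in bases from the transcription start, by motif. Both D-boxes belong to Per3, the matches to the RORE letters belong to Arntl, Per3 and Cry2, and Clock, Npas2 and Dbp have no match.

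The libraries held 45472946 and 45822403 expected counts, that is, estimated fragments per gene. Levels are in TPM, the deposited measure scaled to 1 fixed total per library, and are divided by length and so allow different genes to be set side by side. The bounds after each TPM value are those of the deposited credibility interval, whose level is not stated and which covers the assignment of reads, not the spread between animals. The median gene, taken over the 12260 genes that averaged 1 TPM or more, lay 0.66 log2 units (1.58-fold) higher in replicate 2. Differences between replicates are therefore given as log2((TPM + 1) ratio), replicate 2 over replicate 1, minus this shift, and are called "relative to the median gene". Before centring, the added 1 draws the ratios of genes with low levels toward no difference. After centring such genes are drawn toward log2 -0.66, the value of a gene with equal TPM in both libraries. In bulk tissue, fewer cells of a type and less RNA per cell cannot be told apart.

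Of the positive limb, Npas2 was the most abundant and Arntl the least abundant in each library. Npas2 (chromosome 1, 39193731 to 39363236, GRCm38, ENSMUSG00000026077.11), the alternative partner of ARNTL, was at 12.95 TPM (12.2 to 13.9) in replicate 1 and 63.6 TPM (60.8 to 65.5) in the other, from 2379 and 8344 counts. Relative to the median gene it was 2.92-fold higher in replicate 2 (log2 1.55), the widest gap of the 10 members. Its mean was 38.3 ± 35.8 TPM (SD, n = 2), so the spread between the libraries is nearly as large as the level itself.

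Arntl (chromosome 7, 113207465 to 113314126, ENSMUSG00000055116.7), the partner that both activator pairs need, was at 2.34 TPM (2.07 to 2.58) and 6.96 TPM (6.40 to 7.39) in replicates 1 and 2. Its mean was 4.65 ± 3.27 TPM (SD, n = 2), and relative to the median gene its log2 ratio was 0.59. Clock (chromosome 5, 76209868 to 76304792, ENSMUSG00000029238.8), which encodes the usual partner of ARNTL and whose RNA is known to vary little over the day in many tissues, was at 4.35 TPM (4.10 to 4.52) and 7.85 TPM (7.47 to 8.10). Its mean was 6.10 ± 2.47 TPM (SD, n = 2). Relative to the median gene Clock differed least of the 10 members (log2 0.06), and this sign turned to -0.05 when the median gene was taken from those averaging 5 TPM or more. The 3 positive-limb genes thus stood in the same order in both libraries, Npas2 over Clock over Arntl, with unequal gaps between the libraries.

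Of the Period genes, whose proteins carry the repressing complex into the nucleus, Per1 was higher in replicate 2 while Per2 was listed lower there. Per1 (chromosome 11, 69095217 to 69109960, ENSMUSG00000020893.13) was at 4.34 TPM (4.11 to 4.82) and 11.4 TPM (10.9 to 12.02), with a log2 ratio of 0.55 relative to the median gene. Per2 (chromosome 1, 91415982 to 91459324, ENSMUSG00000055866.9) was at 4.15 TPM (3.91 to 16.5) and 3.35 TPM (3.11 to 8.14), from 1181 and 740 counts. It was the only member with a lower TPM in replicate 2 before any centring (log2 -0.24), and relative to the median gene its log2 ratio was -0.91.

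The wide intervals of Per2, which overlapped between the libraries, came with a transcript of 231 nt, Per2-202, that had no assigned counts in either library but upper bounds of 12.3 and 4.79 TPM in replicates 1 and 2. The main transcript, Per2-201, held all assigned Per2 reads, and its own bounds of 3.89 to 4.36 TPM and 3.07 to 3.55 TPM did not overlap. Relative to the median gene Per2 passed 2-fold lower under 4 of the 11 alternatives that gave a ratio. These were a pseudocount of 0.1 (log2 -1.08), posterior mean TPM (-1.25), TMM factors (-1.07) and DESeq2 size factors (-1.12). Over all 11 its log2 ratio ran from -1.25 to -0.24. It was -0.55 when centred on the spike-ins and -0.56 with a pseudocount of 5. Per3 (chromosome 4, 151003652 to 151044665, ENSMUSG00000028957.8), a Period gene that the core loop can run without, was the lowest member in each library at 1.57 TPM (1.41 to 1.79) and 1.96 TPM (1.77 to 2.28). Its intervals overlapped, and its log2 ratio was -0.46 relative to the median gene but 0.20 without centring.

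The cryptochromes, the main repressors of the ARNTL pair, were both higher in replicate 2. Cry1 (chromosome 10, 85131700 to 85185064, ENSMUSG00000020038.9) was at 5.02 TPM (4.63 to 5.36) and 12.1 TPM (11.4 to 12.6), or log2 0.46 relative to the median gene. Cry2 (chromosome 2, 92403646 to 92434043, ENSMUSG00000068742.7) was at 3.73 TPM (3.48 to 4.44) and 10.6 TPM (9.998 to 11.5), or log2 0.63. In both libraries Cry1 was listed above Cry2, with separate intervals in replicate 1 and overlapping ones in replicate 2. The means were 8.56 ± 5.01 and 7.17 ± 4.86 TPM (SD, n = 2), so the gap between the cryptochromes was smaller than the spread between the replicates.

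Nr1d1, the repressor of Arntl and of Npas2, was by far the most abundant member. It (chromosome 11, 98767932 to 98775333, ENSMUSG00000020889.11) was at 47.95 TPM (46.3 to 48.9) in replicate 1 and 168 TPM (164 to 169) in replicate 2, from 5911 and 16295 counts, with a mean of 108 ± 85.2 TPM (SD, n = 2). Replicate 2 was 2.18-fold higher relative to the median gene (log2 1.13). Its level exceeded that of 87.3% of the 12260 genes in replicate 1 and of 93.3% in replicate 2, while Arntl exceeded 23.6% and 38.7%.

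Dbp, an activator of clock output genes through D-boxes and a direct target of the ARNTL pair, differed far less between the libraries than Nr1d1. It (chromosome 7, 45705088 to 45710203, ENSMUSG00000059824.6) was at 7.41 TPM (6.64 to 8.28) and 11.1 TPM (10.2 to 12.3), with a mean of 9.27 ± 2.62 TPM (SD, n = 2). Relative to the median gene its log2 ratio was -0.14, against 0.53 without centring and 0.22 when centred on the spike-ins, so its direction depends on the scaling. It was above 52.1% of the 12260 genes in replicate 1 and 49.7% in replicate 2, the smallest move in rank of the 10 members, before that of Clock (38.7% and 41.5%).

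**Figure D2:**
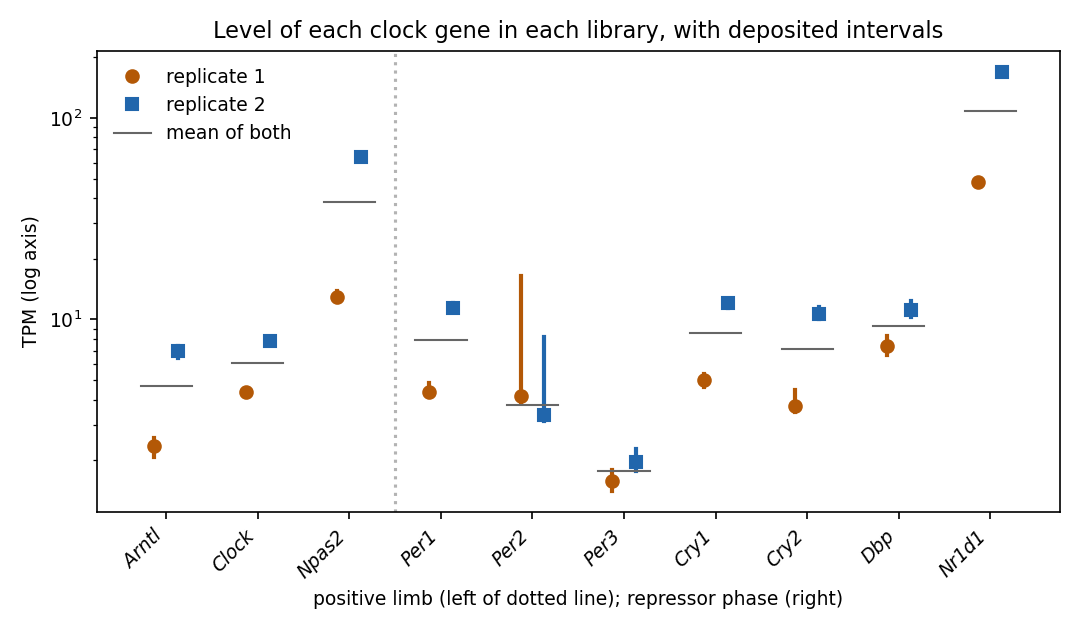
Level of each clock gene in replicates 1 and 2, in TPM on a log axis, with bars for the deposited credibility interval. Nr1d1 (47.95 and 168 TPM) and Npas2 (12.95 and 63.6 TPM) lie above the other members in both libraries, and only Per2 lies lower in replicate 2.

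In replicate 1 the order of levels was Nr1d1, Npas2, Dbp, Cry1, Clock, Per1, Per2, Cry2, Arntl and Per3. The neighbours from Clock to Cry2 had overlapping intervals, and the other neighbours did not. In replicate 2 the order was Nr1d1, Npas2, Cry1, Per1, Dbp, Cry2, Clock, Arntl, Per2 and Per3, with overlapping intervals between the neighbours from Cry1 to Cry2 and between Arntl and Per2. Set in order of their means, neighbouring members had separate ranges over the libraries in 2 places, between Npas2 and Dbp and between Per2 and Per3. The top of the order (Nr1d1, then Npas2) and its bottom (Per3) were thus shared, and the middle was not resolved.

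All 10 members reached 1 TPM in each library, as did 11193 of all 43346 genes (25.8%). Relative to the median gene, 2 of 10 members (Npas2 and Nr1d1) were at least 2-fold higher in replicate 2, where 5.03% of the 12260 genes were. None was at least 2-fold lower, where 6.32% of the genes were, and 11.4% passed in either direction. Without centring 24.9% of genes were at least 2-fold higher and 3.12% lower, and centred on the spike-ins 11.4% were higher and 4.18% lower. Npas2 and Nr1d1 passed 2-fold in all 12 alternatives that gave a ratio, with log2 values from 1.35 to 2.21 and from 1.01 to 1.79. The intervals of 8 of 10 members were apart between the libraries, near the 79.9% of all genes whose intervals were, so that count says nothing particular to the members. The median of the 10 log2 ratios was 0.50, where that of all genes is 0 by construction, with 7 members above the median gene and 3 (Per2, Per3 and Dbp) below it.

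The activators were set against the genes of the repressor phase in each library by a phase index, the mean log2(TPM + 1) of Arntl, Clock and Npas2 minus that of Per1, Per2, Per3, Cry1, Cry2, Dbp and Nr1d1. Any scaling common to all genes of a library nearly cancels in it. The index counts Clock, whose RNA is known to vary little over the day in many tissues. It also counts Cry1 and Cry2, which are not among the genes named above as opposite in phase to Arntl and Npas2. The genes of a group therefore need not share a phase. In replicate 1 the positive limb averaged 2.65 and the repressor phase 2.81, an index of -0.15. In replicate 2 the averages were 4.05 and 3.65, an index of 0.40. The mean index was 0.12 ± 0.39 (SD, n = 2), so it was not separated from 0 by more than the spread. Since the index sets levels of different genes against each other, 0 marks no point of the cycle, and its sign is not a reading of phase. Both groups were higher in replicate 2, the positive limb by 1.40 and the repressor phase by 0.84 log2 units without centring.

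The shift of the index by 0.55 between the libraries was smallest without Npas2. With that gene left out the index was -0.73 in replicate 1 and -0.58 in replicate 2, a difference of 0.15. With Clock left out the difference was 0.89, and with Arntl and Npas2 set against the Per genes, Dbp and Nr1d1 it was 1.03. Over 18 alternatives it ran from 0.15 to 1.03 and was above 0 in all 18, which share their libraries and most of their genes.

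**Figure D3:**
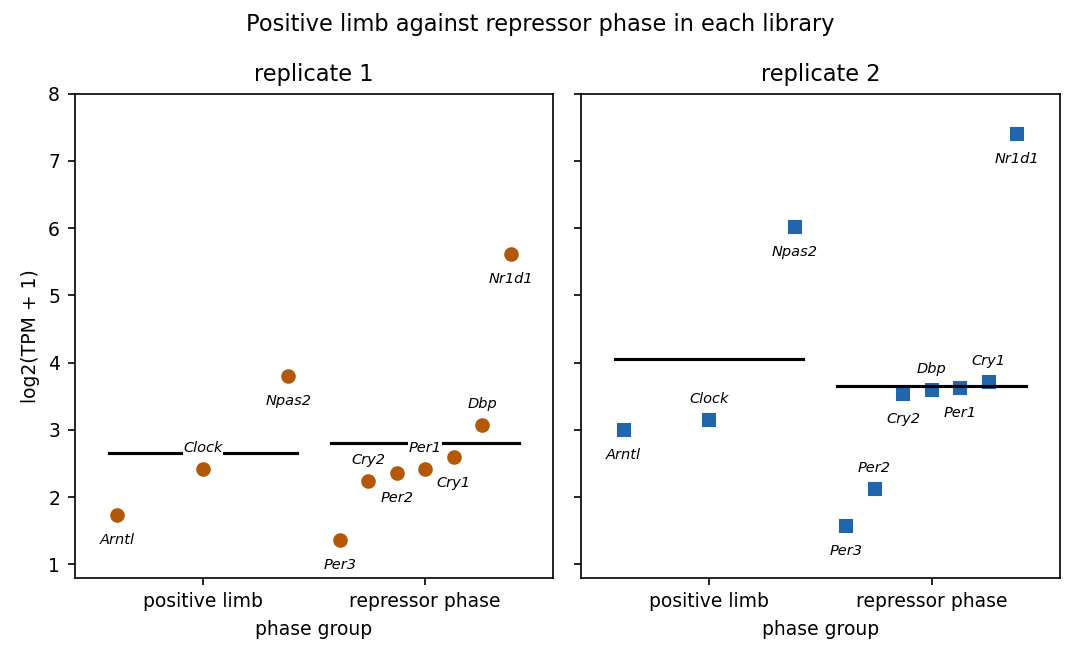
log2(TPM + 1) of the 3 positive-limb genes and the 7 repressor-phase genes in each library, with a line at each group's mean. The means are 2.65 and 2.81 in replicate 1 and 4.05 and 3.65 in replicate 2, and Npas2 and Nr1d1 stand apart from the rest of their groups.

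Pair by pair, the log2(TPM + 1) of a positive-limb gene minus that of a repressor-phase gene was higher in replicate 2 in 15 of 21 pairs and lower in 6. By the plain ratio of TPM, used in the values below, it was higher in 16, since Arntl to Cry2 (0.627 and 0.657) turned. All 7 ratios of Npas2 were higher in replicate 2. The TPM ratio of Npas2 to Per2 went from 3.12 to 19.0, that to Per3 from 8.25 to 32.4, and that to Nr1d1 from 0.270 to 0.378. On the log2(TPM + 1) scale 5 of 7 pairs of Arntl and 3 of 7 pairs of Clock were higher in replicate 2.

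By TPM the member above and the member below changed places in 3 pairs. In each of them the gene-level intervals overlapped in 1 library, so by these intervals no change of order was resolved. Arntl was below Per2 in replicate 1 (ratio 0.564), and was listed above it in replicate 2 (2.08), where the gene-level intervals overlapped. The bounds of Per2-201, which held all assigned Per2 reads, were apart from those of Arntl in both libraries. In replicate 1 they were 3.89 to 4.36 TPM against 2.07 to 2.58 for Arntl. In replicate 2 they were 3.07 to 3.55 TPM against 6.40 to 7.39. Clock was listed above Per1 (ratio 1.00) and Cry2 (1.17) in replicate 1, where its interval overlapped both, and was below them with separate intervals in replicate 2. Arntl to Dbp went from 0.316 to 0.626, while Arntl to Nr1d1 went the other way, from 0.0488 to 0.0413, as did Clock to Nr1d1, from 0.0907 to 0.0466. By TPM in these libraries the repressor-phase genes therefore did not move as 1 block against the activators. Nr1d1 was higher in replicate 2, while Per2 was listed lower there, with gene-level intervals that overlapped.

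The libraries also differed in the markers of other tissues. All 16 exocrine pancreas markers, of which the highest were Ctrb1 and Cela2a (digestive enzyme precursors), were at least 2-fold lower in replicate 2, and their sum was 28.2% of TPM in replicate 1 and 0.181% in replicate 2. The 8 of 10 stomach markers that averaged 1 TPM or more were likewise all lower, at 1.98% and 0.00515% of TPM for the whole list, and no marker of either list was at 0. Of 8 enterocyte markers 6 were at least 2-fold higher in replicate 2 and 1, Alpi, was lower, with a median log2 ratio of 1.58 and sums of 4943 and 7115 TPM. All 6 smooth muscle markers lay below the median gene, 1 of them by at least 2-fold, with sums of 1304 and 1158 TPM. None of the 6 plasma cell markers passed 2-fold (median 0.16, sums 32053 and 63910 TPM), and the 6 enteric neuron and glia markers summed to 11.5 and 16.2 TPM. The 5 liver markers summed to 9.00 and 5.96 TPM, with 1 higher and 1 lower by 2-fold and 1 at 0 in replicate 2. The part of these tissues in the clock gene differences was not tested. With TPM rescaled without the pancreas and stomach genes the index was -0.16 and 0.40, and 2 members again passed 2-fold higher. This rescaling multiplies the remaining genes of a library by a common factor, which nearly cancels in both measures. It takes away no clock gene RNA that came from those tissues, so it says nothing on their part.

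Most companion genes of the loop differed from the median gene by less than 2-fold, as did most of the 12260 genes, of which 11.4% passed 2-fold. Of the second loop, 5 of 8 genes averaged 1 TPM or more, none passed 2-fold, and the median log2 ratio was -0.16. Nr1d2, the close relative of Nr1d1, was at 6.62 and 9.80 TPM (log2 -0.16), while Nr1d1 was at log2 1.13. Rora, a ROR receptor, was at 3.12 and 3.70 TPM (log2 -0.47), and Bhlhe40, an E-box repressor, at 8.55 and 18.1 TPM (log2 0.34). Ciart, a repressor of the ARNTL pair with 3 E-boxes in its promoter window, and Arntl2, a relative of Arntl, stayed at 0.59 and 0.20 TPM in each library, and Rorb was listed at 0 and 0.04 TPM.

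Of the output regulators, 8 of 9 averaged 1 TPM or more, with a median log2 ratio of 0.31, and 1 passed 2-fold, Usp2, a deubiquitinase whose RNA is known to be clock-driven, lower at 14.0 and 9.72 TPM (log2 -1.15). Like Per2, it had a lower TPM in replicate 2 before centring. Tef, a relative of Dbp (4.50 and 7.70 TPM, log2 -0.00), and Nfil3, the repressor at D-boxes (3.05 and 7.51 TPM, log2 0.41), did not pass. Hlf, another relative of Dbp (0.32 and 1.48 TPM), averaged 0.9 TPM and was not counted. Noct, which encodes nocturnin, was at 15.4 and 46.05 TPM (log2 0.85), and Nampt, the enzyme of NAD salvage, at 2.44 and 6.42 TPM (log2 0.44).

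Of the genes whose products modify clock proteins, 12 of 13 averaged 1 TPM or more and none passed 2-fold, with a median of 0.30. Csnk1d and Csnk1e, the kinases that phosphorylate PER proteins, were at 21.3 and 49.8 TPM (log2 0.52) and at 11.8 and 20.9 TPM (log2 0.12). Csnk2a1 had the highest ratio of the list (2.10 and 8.31 TPM, log2 0.92), and Timeless the lowest (1.20 and 1.59 TPM, log2 -0.43).

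Of 8 intestinal genes known to follow daily rhythms, 2 were at least 2-fold higher in replicate 2 and 1 was lower, with a median of 0.34. Slc15a1, the peptide transporter PEPT1, was at 24.9 and 247 TPM (log2 2.59), more than any member. Apob, the structural protein of chylomicrons, was at 23.8 and 107 TPM (log2 1.46). Slc9a3, the sodium-proton exchanger NHE3, was at 78.0 and 46.05 TPM (log2 -1.41). Over the 4 companion lists 33 of 38 genes averaged 1 TPM or more, and 2 were higher and 2 lower by 2-fold, against the 5.03% and 6.32% of all genes. These counts are near those shares, so they say nothing particular to the companion lists.

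**Figure D4:**
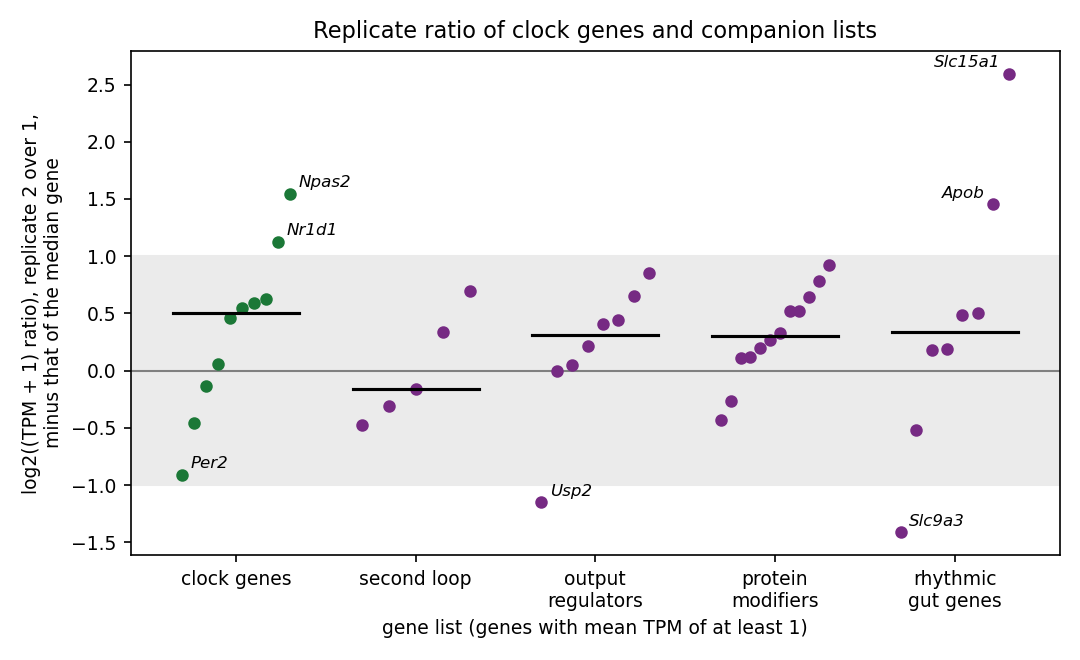
log2 ratio of replicate 2 over replicate 1 relative to the median gene for the clock genes and 4 companion lists, 1 point for each gene averaging 1 TPM or more, with a line at each list's median and a grey band for less than 2-fold. Npas2 (1.55) and Nr1d1 (1.13) lie above the band among the clock genes, whose lowest is Per2 (-0.91).

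The transcript tables list 30 transcripts for the 10 members. Arntl, Clock and Cry1 have 1 each, and in 5 of the other 7 members the transcript with the highest mean held at least 75% of the gene's TPM in both libraries. Npas2-201 (4236 nt) held 89.6% of Npas2 in replicate 1 and 81.7% in replicate 2, at 11.6 and 51.95 TPM. Npas2-203, a coding transcript of only 484 nt, held the remaining 10.4% and 18.3% from 17 and 122 counts, since TPM divides by length. On Npas2-201 alone, an alternative chosen after the data were seen, the log2 ratio of Npas2 relative to the median gene was 1.41 in place of 1.55. Nr1d1-201 held 96.8% and 97.6% of Nr1d1, and Cry2-201 held 90.5% and 91.1% of Cry2.

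The 2 members without such a leading transcript were Per1 and Per3. Per1 was split over similar coding transcripts, with Per1-206 at 36.6% and 39.1%, Per1-201 at 41.3% and 22.6%, and Per1-202 at 22.1% and 17.4%. Per1-203 was listed at 0 TPM in replicate 1, with an upper bound of 0.496 TPM, and at 2.35 TPM (0.961 to 3.44) in replicate 2, where it held 20.7%. Of Per3, 65.3% and 69.5% came from Per3-204, which the annotation classes as a processed transcript without a coding frame (1.02 and 1.37 TPM). The protein-coding Per3-201 held 27.0% and 25.7% (0.42 and 0.50 TPM), so most of the Per3 level was assigned to a transcript not annotated as coding. Dbp-201 held 75.3% and 82.4% of Dbp, and a transcript of 801 nt that the later annotation no longer lists held 21.8% and 12.04%.

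**Figure D5:**
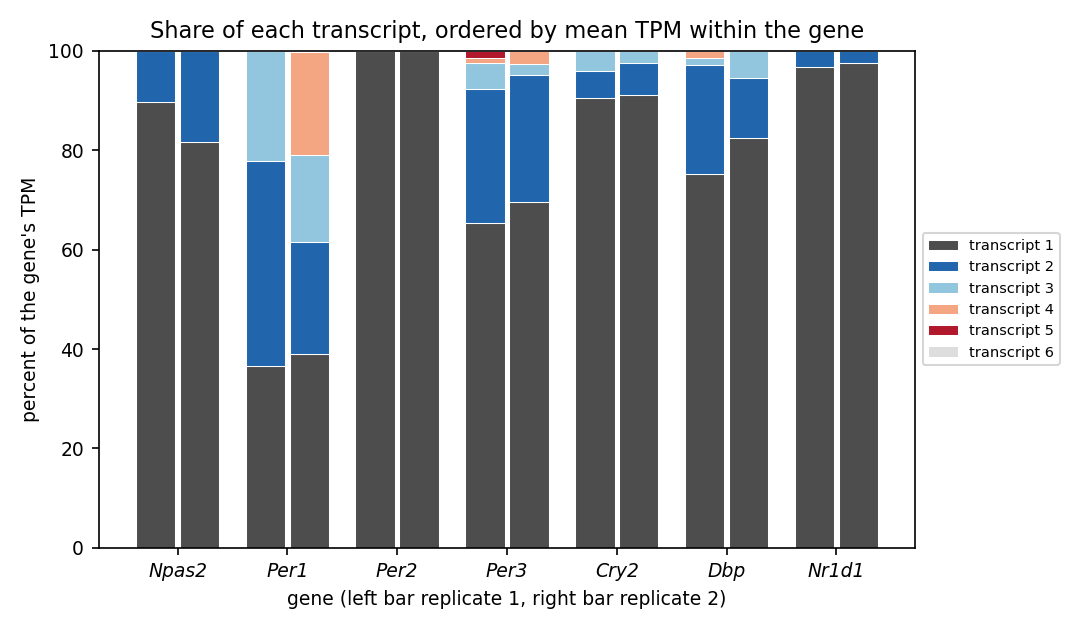
Percent of each clock gene's TPM by transcript in replicates 1 and 2, in order of mean TPM. Per1 is split over 3 or more transcripts, and Per3-204 holds 65.3% and 69.5% of Per3.

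The spans of some members overlap those of other genes, and whether the counting used the strand is not given in the sources used here. The 3′ end of Nr1d1 overlaps that of Thra, the gene of thyroid hormone receptor alpha on the opposite strand, over 1075 bases, and Thra was at 37.3 and 105 TPM. Dbp shares 737 bases with Sphk2 on the opposite strand (70.1 and 135 TPM). Per3 lies within the span of Camta1 on the same strand (1.14 and 1.82 TPM), a level close to its own. The levels of these 3 members are uncertain to the extent that reads from the shared bases could be given to either gene.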

How the data were processed

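RNA was measured in 2 small intestine libraries of 1 group, so values are given per library or as mean ± SD and no test was made. The deposited tables give expected counts (estimated fragments that need not be whole), TPM, FPKM, credibility bounds, posterior mean TPM and, for transcripts, the percent of the gene's TPM. Deposited TPM run over all features, so genes that take a large share in 1 library lower the others there. Deposited FPKM scale fragments by length and library total. The text deposited with the tables names mm10 and annotation release M4; which aligner and quantifier made them is not given in the sources used here. Total expected counts were 45472946 and 45822403 per library, of which a member held 312 to 16295.

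Symbols and spans came from GENCODE M21 on GRCm38 matched on gene identifiers without their version (42462 of 43346 genes, 98.0%); 2 of the 10 members have the same gene version in both annotations. Replicate ratios are log2((TPM + 1) ratio) minus the median over the 12260 genes averaging 1 TPM or more, and called means at least 2-fold. Alternatives were pseudocounts of 0.1 and 5, posterior mean TPM, FPKM, TPM rescaled without the pancreas and stomach lists, TMM factors (edgeR 4.0.16) and DESeq2 1.42.0 size factors on expected counts rounded to whole numbers, other minimums and centrings, other makeups of the index, and each member or library left out. R 4.3.3, Python 3.11.15, numpy 2.4.6, pandas 2.3.3 and matplotlib 3.10.9 were used. Of the steps, only that of the replicate ratios was tested on simulated data, with genes more abundant than most members. All members, all companion genes, the 2 highest markers of a list and genes overlapping a member could be named, and 2 companion genes are not reported here by name. Alpi is 1 of the 2 highest enterocyte markers. The members and lists were chosen with earlier results of these data known.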

Additional observations from a re-analysis of the deposited data

How the results depend on the processing

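No paired analysis was possible because there is 1 group, and leaving out a library leaves no ratio. The phase index (main value 0.12) ran from -0.15 to 0.40 with 1 library left out, and was -0.48 as a log2 ratio of mean TPM and -0.66 without Npas2, -0.17 without Per3 and -0.04 without Per2, all of opposite sign, 0.61 without Arntl and 0.67 without Nr1d1. Its difference between libraries (0.55) was 1.03 for Arntl and Npas2 against Per1, Per2, Per3, Dbp and Nr1d1. With a TPM minimum of 5 in place of 1, 4 members were detected in place of 10. Members at least 2-fold higher (2) became 6 without centring, and 6 with no TPM minimum, where the median gene is at 0 and centring has no effect. Members lower (0) became 1, Per2, with TMM factors, with DESeq2 size factors, with posterior mean TPM and with a pseudocount of 0.1, 1 in each. Companion genes higher (2) became 15 without centring, 15 with no minimum, 8 centred on the spike-ins and 4 with DESeq2 size factors; those lower (2) became 0 without centring, 0 with no minimum, 1 centred on the spike-ins and 1 with a pseudocount of 5. Where the construction does not show it, the cause was not tested. The other alternatives stayed within the limits used, which are 1 SD (0.39) for the index, under 1 log2 unit for its difference and up to 1.5 times for a count. Arntl, Per2 and Per3 have no ratio where genes under a mean TPM of 5 were left out. The design limits every difference to 2 libraries, and depth limits the low members most, Per3 with 328 and 312 counts.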
